A study of Mus musculus with 3 samples.

Results

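The genes described here build the basement membrane or help collagen fold: the collagen IV chains Col4a1 and Col4a2, the laminin chains Lama1, Lamb1 and Lamc1, the linkers Nid1 and Hspg2, the collagen-binding glycoprotein Sparc, the collagen chaperone Serpinh1 and the prolyl hydroxylase subunit P4ha2. They were chosen by name, and all 10 were found among the 23154 genes of the count tables, of which 17473 had at least 1 count. The data are 3′-end transcript counts of individual cells from mouse blastocysts of embryonic day 3.5, in 3 libraries (replicates 1 to 3) with 96 cell barcodes each. All cells carried the Klf2-H2Bmcherry reporter, a fluorescent histone tag at the flow-responsive gene Klf2, and came from mCherry-positive embryos. Embryos were taken at embryonic day 2.5 and grown in vitro, some static and some shaken, before a protease removed the zona pellucida and the cells were separated. Static and shaken culture are not told apart per cell or library in the labels, and the 3 libraries make up a single group without a comparison of culture. The groups set against each other are cell classes drawn within each library: trophectoderm-like (TE-like) over inner-cell-mass-like (ICM-like) cells, and endoderm-leaning over epiblast-leaning ICM-like cells, the upper and lower sides of a marker score.

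A basement membrane is a thin sheet of matrix on which an epithelium rests. Laminin trimers of an α, a β and a γ chain assemble on the cell surface, collagen IV forms a covalent network beside them, and nidogen and perlecan link the layers. Collagen chains fold in the endoplasmic reticulum, where prolyl 4-hydroxylase modifies their prolines and the chaperone HSP47, the product of Serpinh1, binds the finished triple helix. In the mouse blastocyst, laminin and collagen IV lie between the primitive endoderm and the epiblast and under the trophectoderm, and parietal endoderm later lays down Reichert's membrane, which is rich in both.

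Col4a1 and Col4a2 sit head to head on chromosome 8, and the stretch that their promoter windows share is shown because both genes differed between the cell classes described below. In the GENCODE annotation of GRCm38 (mm10), Col4a1 spans positions 11198423 to 11312826 on the minus strand and Col4a2 positions 11312805 to 11449287 on the plus strand. Their outermost exons overlap by 22 bases on opposite strands. RefSeq windows from 250 bases before to 50 bases after the start (GRCm38.p6) were matched for 8 of the 10 genes, all except Lama1 and Lamc1. The 78 bases common to the windows of Col4a1 and Col4a2 lie at chr8:11312777-11312854 and read, on the plus strand,
Col4a1 and Col4a2 shared: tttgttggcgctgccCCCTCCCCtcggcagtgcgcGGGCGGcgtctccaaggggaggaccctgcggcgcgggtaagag
Capitals mark CCCTCCCC (a CTC box, the letters known from the collagen IV promoter) and GGGCGG (a GC box). The whole windows of the genes that differed, or that came within reach of the threshold, follow from 5′ to 3′ along each gene's own strand, with CCAAT boxes and matches on the opposite strand also in capitals. Col4a1 covers chr8:11312777-11313076 on the minus strand, Col4a2 chr8:11312555-11312854 on the plus strand, Lamb1 chr12:31265043-31265342 on the plus strand and Serpinh1 chr7:99353190-99353489 on the minus strand.
Col4a1: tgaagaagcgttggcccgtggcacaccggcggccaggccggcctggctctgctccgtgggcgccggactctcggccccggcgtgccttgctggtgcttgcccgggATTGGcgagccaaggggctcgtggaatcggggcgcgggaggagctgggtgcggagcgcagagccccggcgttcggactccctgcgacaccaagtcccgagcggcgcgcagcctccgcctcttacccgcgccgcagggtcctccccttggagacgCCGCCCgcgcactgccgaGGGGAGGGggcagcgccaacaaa
Col4a2: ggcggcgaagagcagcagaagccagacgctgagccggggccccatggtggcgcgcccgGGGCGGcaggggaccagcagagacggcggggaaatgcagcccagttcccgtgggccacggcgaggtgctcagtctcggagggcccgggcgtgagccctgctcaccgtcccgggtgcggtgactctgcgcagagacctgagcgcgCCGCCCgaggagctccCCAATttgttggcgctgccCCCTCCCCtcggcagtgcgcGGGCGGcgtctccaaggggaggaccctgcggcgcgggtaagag
Lamb1: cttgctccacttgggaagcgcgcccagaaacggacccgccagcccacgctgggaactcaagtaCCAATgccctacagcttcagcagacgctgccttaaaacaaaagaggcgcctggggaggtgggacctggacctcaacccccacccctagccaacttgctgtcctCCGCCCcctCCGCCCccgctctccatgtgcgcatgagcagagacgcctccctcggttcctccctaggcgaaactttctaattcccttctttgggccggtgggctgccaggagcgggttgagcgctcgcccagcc
Serpinh1: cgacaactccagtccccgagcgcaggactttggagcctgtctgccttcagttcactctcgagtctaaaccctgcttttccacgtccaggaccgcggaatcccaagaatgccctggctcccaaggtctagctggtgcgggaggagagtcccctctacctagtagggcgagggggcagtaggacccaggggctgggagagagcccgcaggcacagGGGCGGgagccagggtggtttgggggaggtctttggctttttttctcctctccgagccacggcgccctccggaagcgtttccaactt
GGGCGG, searched on both strands, stood in 7 of the 8 windows, all but that of Sparc, and in 35.7% of 32851 promoters of the same length. CCAAT stood in those of Col4a1, Col4a2, Lamb1 and Nid1, against 37.4% of all promoters. CCCTCCCC stood in those of Col4a1, Col4a2 and Nid1, against 10.8% of all promoters. The CCCTCCCC and the GGGCGG of the Col4a1 window lie in the shared stretch, so the same letters are counted again for Col4a2. TATAAA, present in 13.6% of promoters, and the heat shock letters GAANNTTC, present in 7.86%, were in none of the 8 windows.

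Barcodes with counts in 2000 or more genes, 83, 64 and 78 in replicates 1 to 3, were taken as cells. Library totals were 30573711, 27610866 and 54444536 counts, and median totals per cell were 286484, 345413.5 and 608733.5. Ribosomal protein genes took 13.4%, 4.21% and 13.2% of the counts of kept cells, so replicate 2 stood apart from the others. The libraries reused the same 96 cell barcodes under separate library indices. Clustering on trophectoderm, inner cell mass, epiblast and primitive endoderm markers, with none of the 10 genes among them, gave 92 TE-like cells (29, 31 and 32 by replicate) and 98 ICM-like cells (35, 26 and 37). The other 35 cells stayed unnamed. Summed markers of trophectoderm reached 7468 ± 1960 CPM (counts scaled to a library sum of 1e6) in TE-like and 977 ± 353 CPM in ICM-like cells (SD, n = 3 libraries), and those of epiblast 278 ± 67.5 and 811 ± 159 CPM. Markers of inner cell mass differed less, at 823 ± 20.9 CPM in TE-like and 1433 ± 94.3 CPM in ICM-like cells. The epiblast marker Sox2 was listed at 0 in both classes. Summed markers of primitive endoderm did not mark either class, with 337 ± 185 CPM in TE-like and 269 ± 93.2 CPM in ICM-like cells. Single markers went both ways. Pdgfra stood at 10.3, 7.15 and 1.47 CPM in TE-like cells of replicates 1 to 3, against 25.8, 67.6 and 27.2 CPM in ICM-like cells. Fgfr2 was instead among the 10 leading markers of the TE-like cluster against all other cells. The defining gene Sox17 was listed at 0 in TE-like cells and at 0.661 ± 0.753 CPM in ICM-like cells.

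Across all kept cells every one of the 10 genes was detected in each library, but Lama1, which encodes the laminin α1 chain, and Hspg2 were sparse. P4ha2 had counts in 81.9%, 81.3% and 83.3% of cells of replicates 1 to 3, and Lamb1 in 74.7%, 76.6% and 73.1%. Lama1 had counts in 7.23%, 31.3% and 17.9% of cells, and Hspg2 in 37.3%, 10.9% and 25.6%. Depth differed between cells, so each was also thinned to 50000 counts, which left out 9, 8 and 6 shallower cells. After thinning, the share of cells with a count averaged 71.4 ± 7.56% for P4ha2, 59.5 ± 12.1% for Lamb1, 55.5 ± 10.8% for Sparc and 52.8 ± 15.3% for Lamc1 (SD, n = 3 libraries). It averaged 48.2 ± 3.12% for Nid1, 43.3 ± 3.08% for Col4a1, 39.2 ± 8.24% for Serpinh1 and 35.8 ± 3.53% for Col4a2. Lama1 at 12.4 ± 10.9% and Hspg2 at 9.68 ± 2.51% stood lowest. Counts are of 3′ ends and carry no length correction, but capture can differ between genes, so levels are compared here between cells and not between genes.

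Levels of these genes also differed between libraries. Across kept cells P4ha2 stood at 48.0, 270.1 and 75.1 CPM in replicates 1 to 3, Lamb1 at 37.3, 149.2 and 66.9 CPM, and Serpinh1 at 40.5, 152.8 and 28.4 CPM. Replicate 2, the library with the low ribosomal share, was highest for each of these, and the part of that share in the levels was not tested. Sparc ran the other way, at 124.7, 32.3 and 78.6 CPM, lowest in replicate 2. Comparisons between classes were therefore made within libraries.

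Collagen IV was lower in the trophectoderm-like cells. Col4a1 and Col4a2, which encode the α1 and α2 chains of the most widespread collagen IV trimer, were 4.22-fold and 4.56-fold lower in TE-like than in ICM-like cells. Col4a1 stood at 15.2, 16.2 and 15.9 CPM in TE-like cells of replicates 1 to 3, against 54.9, 114.9 and 50.5 CPM in ICM-like cells. The 3 TE-like values lay close together and below all 3 ICM-like values. Its log2 fold change was -2.08 ± 0.35 (SE), with an adjusted p of 0.0259 by edgeR's quasi-likelihood test over all genes tested, with the library as a block. Col4a2 stood at 18.7, 5.30 and 7.39 CPM in TE-like cells, against 55.4, 39.4 and 34.5 CPM in ICM-like cells. Again the classes did not overlap, and here replicate 1 was highest in each class. Its log2 fold change was -2.19 ± 0.39 (SE), with an adjusted p of 0.0314 by the same edgeR test.

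**Figure D1:**
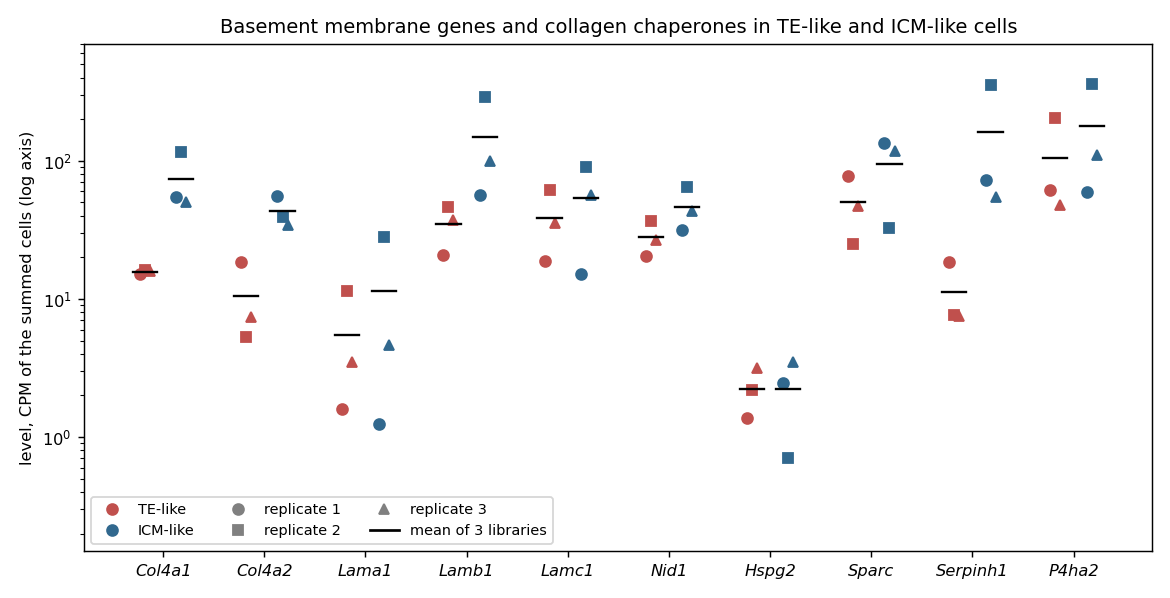
Level of each gene in summed TE-like (red, left of each pair) and ICM-like cells (blue, right), in CPM on a log axis; symbols are the 3 libraries and bars their means. Col4a1, Col4a2, Lamb1 and Serpinh1 do not overlap between the classes, while Lama1, Lamc1, Nid1, Hspg2, Sparc and P4ha2 do.

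The fall of collagen IV showed in the share of cells as well as in the level, and both come from the same counts. After thinning, 33.3%, 32.1% and 31.3% of TE-like cells of replicates 1 to 3 had a Col4a1 count, with exact 95% intervals that reached from 15.9% to 54.0% and cover counting error only. In ICM-like cells the shares were 67.7%, 58.3% and 50.0%, with intervals that reached from 32.9% to 83.3%. The Col4a1 intervals of the classes overlapped in each library. For Col4a2 the shares were 33.3%, 21.4% and 15.6% of TE-like cells, against 58.1%, 41.7% and 55.6% of ICM-like cells. Its intervals overlapped between the classes in replicates 1 and 2. In replicate 3 they did not, at 5.28% to 32.8% in TE-like against 38.1% to 72.1% in ICM-like cells. In each library the share was lower in TE-like cells for both chains.

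Of the laminin chains Lama1, Lamb1 and Lamc1, only Lamb1 passed the test, although the difference between chains was itself not tested. Lama4, a laminin α chain outside the 10 genes, is described below. Lamb1, the β1 chain found in most early embryonic laminins, stood at 20.8, 46.1 and 37.0 CPM in TE-like cells, against 56.8, 290.6 and 98.8 CPM in ICM-like cells. All TE-like values lay below all ICM-like values, and replicate 2 was highest in both. Its log2 fold change was -1.80 ± 0.32 (SE), with an adjusted p of 0.0305 by edgeR. Lamc1, the γ1 chain that pairs with it, stood at 18.8, 61.4 and 35.7 CPM in TE-like cells, against 15.1, 90.5 and 56.2 CPM in ICM-like cells. The classes overlapped for Lamc1, with replicate 1 higher in TE-like cells, and its log2 fold change of -0.28 ± 0.31 (SE) did not pass (adjusted p = 0.733, edgeR). Lama1, the α1 chain of the embryonic laminin trimer, stood at 1.60, 11.3 and 3.51 CPM in TE-like cells, against 1.23, 28.1 and 4.61 CPM in ICM-like cells. Replicate 2 was highest in both classes, and its log2 fold change of -0.45 ± 0.63 (SE) did not pass (adjusted p = 0.785, edgeR).

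The linkers of the membrane did not pass the test. Nid1, which encodes nidogen-1 and joins laminin to collagen IV, stood at 20.4, 36.8 and 26.9 CPM in TE-like cells, against 31.8, 64.2 and 43.5 CPM in ICM-like cells. It was lower in TE-like cells of each library, but the ranges overlapped, and the log2 fold change of -0.68 ± 0.28 (SE) had an adjusted p of 0.278 by edgeR. Hspg2, which encodes the heparan sulfate proteoglycan perlecan, stood at 1.37, 2.18 and 3.18 CPM in TE-like cells, against 2.47, 0.701 and 3.48 CPM in ICM-like cells. These levels rest on 12, 33 and 95 counts in TE-like and 30, 8 and 83 counts in ICM-like cells, and a difference was not detectable at this depth (log2 fold change 0.22 ± 1.03 (SE), adjusted p = 0.946, edgeR).

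The collagen chaperone had the largest fitted difference of the 10 genes and just missed the threshold. Serpinh1 stood at 18.5, 7.61 and 7.49 CPM in TE-like cells, against 72.5, 354.5 and 54.9 CPM in ICM-like cells. The classes did not overlap, and the ICM-like value of replicate 2 stood far above the other ICM-like values. The log2 fold change was -3.35 ± 0.69 (SE), with an adjusted p of 0.0503 by edgeR. The share of thinned cells with a Serpinh1 count was 37.0%, 14.3% and 18.8% in TE-like cells, against 61.3%, 66.7% and 47.2% in ICM-like cells. P4ha2, an α subunit of collagen prolyl 4-hydroxylase, stood at 61.6, 204.5 and 47.9 CPM in TE-like cells, against 59.1, 362.2 and 110.0 CPM in ICM-like cells. It was lower in TE-like cells of replicates 2 and 3 and slightly higher in replicate 1, and its log2 fold change of -0.63 ± 0.27 (SE) did not pass (adjusted p = 0.301, edgeR). Sparc, a secreted glycoprotein that binds collagen IV, stood at 77.8, 25.0 and 47.2 CPM in TE-like cells, against 133.4, 32.7 and 118.4 CPM in ICM-like cells. Each library was lower in TE-like cells, the ranges overlapped, and the log2 fold change of -0.80 ± 0.26 (SE) had an adjusted p of 0.181 by edgeR.

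Of the 10 genes, 3 were called lower and 0 higher in TE-like cells, where 0.848% of the 12496 genes tested were called lower and 2.06% higher. The median log2 fold change was -0.74 over the 10 genes and -0.0092 over all genes tested, and 9 of the 10 estimates were negative. The classes did not overlap for 4 of the 10, with TE-like lower, against 5.02% of all genes. Leaving out replicate 2 or 3 took Col4a1 to adjusted p = 0.0717 or 0.0781 and Lamb1 to 0.105 or 0.0845, and leaving out replicate 1, 2 or 3 took Col4a2 to 0.0536, 0.0803 or 0.1655 (edgeR), while Serpinh1 passed without replicate 1 (0.0232) or 2 (0.0402) and missed without 3 (0.145). Without the library block, adjusted p was 0.419 for Col4a1, 0.628 for Col4a2, 0.620 for Lamb1 and 0.286 for Serpinh1, and all fold changes of these genes stayed negative in the 14 alternatives run. Lamb1 also missed at a clustering resolution of 1.0 (adjusted p = 0.155, edgeR). Against ICM-like cluster 2 or cluster 3 alone, adjusted p by edgeR was 0.151 or 0.144 for Col4a1, 0.0393 or 0.135 for Col4a2 and 0.0680 or 0.0856 for Lamb1.

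**Figure D2:**
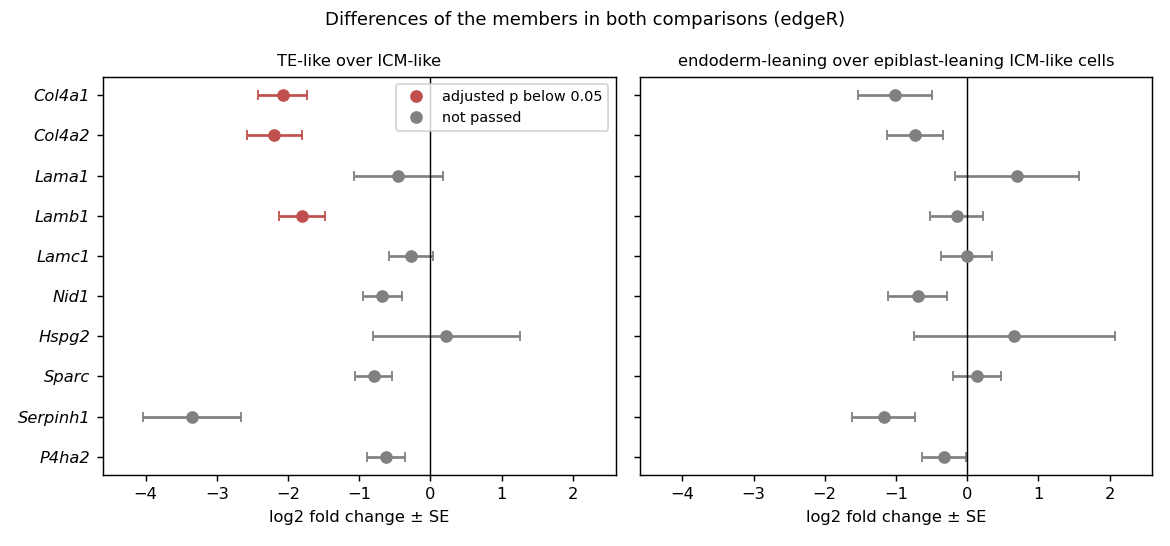
Log2 fold change of each gene with its standard error from edgeR; TE-like over ICM-like cells (left) and endoderm-leaning over epiblast-leaning ICM-like cells (right); red marks an adjusted p below 0.05. Col4a1, Col4a2 and Lamb1 pass on the left, at -2.08, -2.19 and -1.80, and no gene passes on the right.

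Cells of fibroblasts or other stroma, which make much collagen, were looked for among the cells. The 7 stromal markers summed to between 0.343 and 1.06 CPM in TE-like cells and between 0.0877 and 4.195 CPM in ICM-like cells, with Col1a2, Col3a1 and Lum listed at 0 in both classes and Col1a1 and Thy1 also at 0 in TE-like cells. The 5 blood markers reached at most 0.0334 CPM in TE-like cells and were listed at 0 in ICM-like cells. Granulosa, endothelial and oviduct markers summed to at most 3.77, 4.30 and 12.7 CPM in TE-like cells and 2.88, 5.10 and 11.6 CPM in ICM-like cells. Oocyte markers, which include transcripts left from the egg, summed to between 9.66 and 23.0 CPM in TE-like and between 9.20 and 51.7 CPM in ICM-like cells, and their part in the results was not tested.

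Other genes of the pathway were counted by lists grouped by role, which were chosen with earlier results of these data known and support nothing by themselves. Of 28 other basement membrane components, 21 were tested, 1 fell in TE-like cells and 20 did not pass, with a median log2 fold change of 0.022. The gene that fell was Lama4, a laminin α chain of vessel membranes, at 0, 1.32 and 0.1003 CPM in TE-like cells, against 4.11, 21.8 and 3.69 CPM in ICM-like cells. The classes did not overlap, and the difference passed by edgeR (log2 change -4.96 ± 0.99 (SE), adjusted p = 0.0477). Its adjusted p was 0.0829, 0.206 and 0.207 without replicates 1, 2 and 3, and it also missed with at least 4000 genes per barcode (0.0519), at a clustering resolution of 1.0 (0.0548) and against ICM-like cluster 2 or 3 alone (0.408 or 0.124, edgeR). Fn1, which encodes fibronectin, had a log2 fold change of -1.68 ± 0.49 (SE) and Nid2, the paralogue of Nid1, had 2.42 ± 0.89 (SE), and neither passed (adjusted p = 0.133 and 0.230, edgeR). Lama5, another laminin α chain, stood at 33.6, 54.2 and 41.5 CPM in TE-like cells, against 30.9, 65.9 and 52.4 CPM in ICM-like cells. It did not pass (adjusted p = 0.863, edgeR), nor did the α chains Lama2 and Lama3.

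Of 26 genes of collagen modification and secretion, 18 were tested, 3 fell in TE-like cells, 0 rose and 15 did not pass, with a median log2 fold change of -0.19. Creb3l2, a transcription factor that in mouse cartilage promotes collagen secretion, stood at 9.61, 1.92 and 3.51 CPM in TE-like cells, against 416.6, 28.1 and 27.1 CPM in ICM-like cells. Its classes did not overlap, replicate 1 was far higher than the others in ICM-like cells, and its log2 fold change was -4.05 ± 0.49 (SE) with an adjusted p of 0.00865 by edgeR. That call did not hold without cells of very high total (log2 fold change -2.49, adjusted p = 0.133), at a clustering resolution of 1.0 (-1.38, adjusted p = 0.794) or against cluster 2 or 3 alone (adjusted p = 0.299 or 0.0806, edgeR). P4ha1, the other common α subunit of prolyl 4-hydroxylase, stood at 34.4, 167.7 and 33.6 CPM in TE-like cells, against 63.0, 480.3 and 111.9 CPM in ICM-like cells. Each library was lower in TE-like cells, though the ranges overlapped across libraries (log2 fold change -1.35 ± 0.23 (SE), adjusted p = 0.0263, edgeR). Plod1, a lysyl hydroxylase that prepares collagen for cross-linking, stood at 36.2, 37.6 and 17.4 CPM in TE-like cells, against 66.5, 185.9 and 69.2 CPM in ICM-like cells (adjusted p = 0.0492 by edgeR, log2 change -1.70 ± 0.34 (SE)). Without replicate 2 or 3 the adjusted p was 0.183 or 0.153 for P4ha1 and 0.177 or 0.232 for Plod1. At a clustering resolution of 1.0 it was 0.0535 for P4ha1 and 0.0524 for Plod1, and against cluster 3 alone 0.2155 and 0.304. Plod1 also missed with at least 4000 genes per barcode (0.0572) and against cluster 2 alone (0.0546, edgeR).

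Cell-surface receptors of laminin and collagen showed no call: 12 of 14 were tested, 0 passed by edgeR, and 3 had an unadjusted p below 0.05, with a median of 0.022. Of 13 matrix proteases and inhibitors, 6 were tested, 1 rose and 5 did not pass, with a median of -0.58. The gene that rose was Plat, tissue plasminogen activator, a secreted protease that converts plasminogen to plasmin. It stood at 4.35, 112.6 and 59.4 CPM in TE-like cells, against 1.23, 14.46 and 3.60 CPM in ICM-like cells. Each library was higher in TE-like cells, and the difference passed by edgeR (log2 change 3.06 ± 0.48 (SE), adjusted p = 0.0214). Without replicate 2 or 3 its adjusted p was 0.0927 or 0.103, and against cluster 3 alone 0.122 (edgeR). Without the library block none of Lama4, Creb3l2, P4ha1, Plod1 and Plat passed. Over all genes tested 2.91% were called in either direction.

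**Figure D3:**
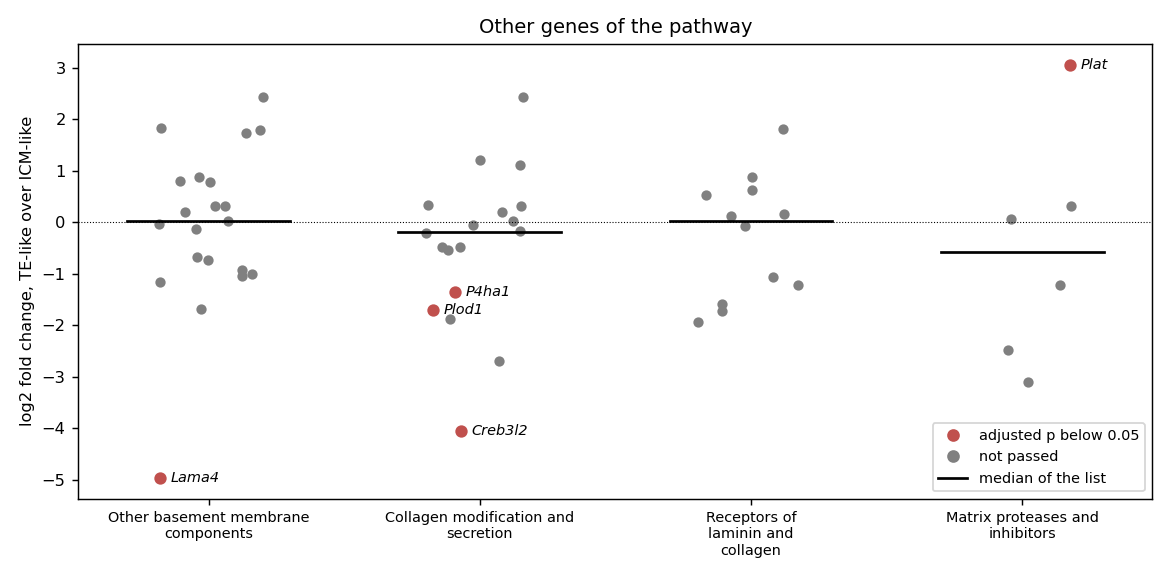
For every tested gene of 4 lists, the log2 ratio of TE-like over ICM-like cells, with red for an adjusted p below 0.05 and a bar for each list's median. Lama4, Creb3l2, P4ha1 and Plod1 are lower and Plat is higher in TE-like cells, and the medians are 0.022, -0.19, 0.022 and -0.58 from left to right.

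The ICM-like cells formed 2 clusters, in which the levels of Sparc, Serpinh1 and Lamb1 are given as a description. Cluster 3, with 43 cells, was led by Tdgf1 and Upp1 and held Serpinh1 among its 10 leading genes, and cluster 2, with 55 cells, was led by Spic. The trophectoderm marker Hand1 was among the 10 leading markers of cluster 2. Sparc stood at 274.5, 28.1 and 260.6 CPM in cluster 3 of replicates 1 to 3, against 53.7, 42.2 and 18.2 CPM in cluster 2. It was higher in cluster 3 of replicates 1 and 3 and lower in cluster 3 of replicate 2. Serpinh1 stood at 53.8, 448.8 and 116.7 CPM in cluster 3, against 83.1, 158.0 and 11.4 CPM in cluster 2. Lamb1 was higher in cluster 3 of each library, at 69.7, 348.0 and 148.4 CPM, against 49.6, 170.7 and 63.8 CPM in cluster 2. The 2 clusters were not tested against each other. Like the classes, they were drawn from these cells, which the p-values against single clusters leave out of account. Set against cluster 2 alone, Sparc was not lower in TE-like cells (log2 fold change 0.40), and against cluster 3 alone it was lower (log2 fold change -1.54), with adjusted p of 0.742 and 0.244 by edgeR.

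**Figure D4:**
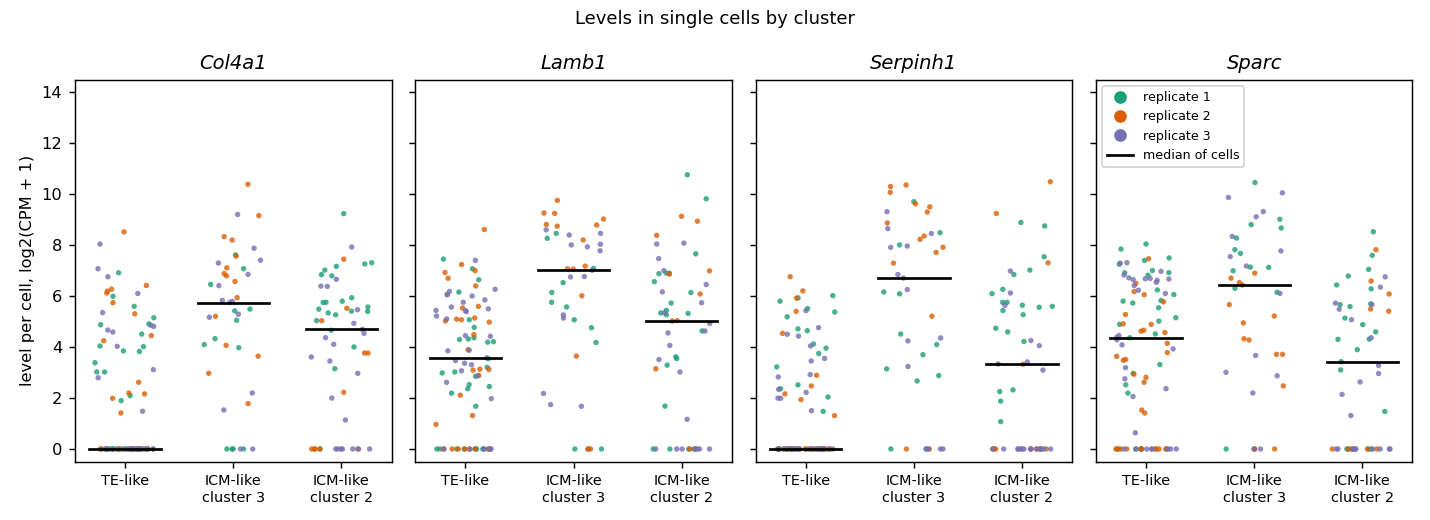
Level per cell as log2(CPM + 1) of Col4a1, Lamb1, Serpinh1 and Sparc in TE-like cells, ICM-like cluster 3 and ICM-like cluster 2; points are cells coloured by library and bars are medians over cells. The median is 0 for Col4a1 and Serpinh1 in TE-like cells, and cluster 3 holds the higher median for each of the 4 genes. These medians pool cells of all libraries. In replicate 1 alone the order turned for Col4a1, at a median of 19.1 CPM in cluster 3 against 49.8 CPM in cluster 2. It also turned there for Serpinh1, at 16.15 against 46.9 CPM.

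Cluster membership went with the barcode number, and so did Sparc. Of the 43 cells of cluster 3, 21 had barcodes 1 to 32, 19 had barcodes 33 to 64 and 3 had barcodes 65 to 96, while the 55 cells of cluster 2 were divided as 7, 11 and 37. What the barcode number stands for, such as an embryo, a culture dish or a day, is not given in the labels. In ICM-like cells with barcodes 1 to 32, Sparc stood at 228.1, 88.8 and 421.8 CPM in replicates 1 to 3, against 23.3, 7.90 and 14.2 CPM in those with barcodes 65 to 96. Barcodes 33 to 64 lay between, at 159.0, 23.8 and 161.6 CPM. In TE-like cells Sparc stood at 107.9, 41.6 and 88.3 CPM with barcodes 1 to 32, against 8.46, 8.36 and 13.0 CPM with barcodes 65 to 96. Barcodes 33 to 64, with as few as 2 TE-like cells in a library, were at 165.7, 16.1 and 13.4 CPM. In either class, no Sparc value with barcodes 65 to 96 reached any with barcodes 1 to 32. The part of the barcode number in the Sparc values above was not tested.

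For the other genes the outer barcode sets were compared. Of the 9 genes with a mean of at least 10 CPM in ICM-like cells, 4 were higher with barcodes 1 to 32 than with 65 to 96 without overlap of the libraries, namely Sparc, Serpinh1, Nid1 and Lama1, against 6.35% of 7877 genes, and 0 were lower, against 3.16%. Serpinh1 was highest with barcodes 33 to 64 in replicates 2 and 3, and Nid1 was lowest there in replicates 1 and 3. For Lama1 in replicate 1 the sets stood at 1.942 CPM with barcodes 1 to 32 and 1.939 CPM with barcodes 65 to 96. In TE-like cells 8 of the 10 genes reached that level, and 1, Sparc, did so, against 5.41% of 7750 genes. Col4a1 ran the other way in TE-like cells, at 14.1, 9.57 and 5.11 CPM with barcodes 1 to 32, against 18.4, 30.1 and 35.9 CPM with barcodes 65 to 96, where 2.62% of genes were lower without overlap. Within the 9 pairs of library and barcode set, TE-like cells were the lower class in 9 for Col4a2 and Nid1. They were lower in 8 for Lamb1, Lamc1 and Serpinh1, and in 7 for Col4a1, Sparc and P4ha2. For Col4a1 the pairs that went the other way both had barcodes 65 to 96. There TE-like cells stood at 30.1 and 35.9 CPM in replicates 2 and 3, against 7.90 and 22.7 CPM in ICM-like cells. In replicate 1 of that set TE-like cells were lower, at 18.4 against 93.8 CPM. With library and barcode set as a joint block, the log2 fold changes were -2.28 for Col4a1, -2.41 for Col4a2, -1.835 for Lamb1 and -3.81 for Serpinh1. No p is read from that fit, since its 9 pairs of sums, some of as few as 2 cells, come from the same 3 libraries and are not independent samples.

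Within the ICM-like cells none of the 10 genes passed the test between endoderm-leaning and epiblast-leaning cells. The ICM-like cells of each library were split at the median of a score, primitive endoderm minus epiblast markers, so these are ranges of a score and not cell types, with 48 cells each and the 2 cells at the median in neither, and 19 of 98 cells lay within 0.1 of the split. Primitive endoderm markers summed to 154.7, 466.0 and 307.5 CPM in endoderm-leaning cells of replicates 1 to 3, against 189.5, 259.4 and 268.4 CPM in epiblast-leaning cells. In replicate 1 they thus went against the name, which stands only for a side of the score. Epiblast markers differed more, at 437.0, 663.8 and 452.3 CPM in endoderm-leaning cells, against 1390, 1164 and 792.2 CPM in epiblast-leaning cells. Trophectoderm markers were at 1928, 801.8 and 846.9 CPM in endoderm-leaning cells, against 699.9, 521.8 and 972.3 CPM in epiblast-leaning cells. Of the endoderm-leaning cells 32 were in cluster 2 and 16 in cluster 3, against 22 and 26 of the epiblast-leaning cells, and the part of these differences in the values that follow was not tested. By edgeR 0 of the 10 genes passed, 1 had an unadjusted p below 0.05 and DESeq2 called 0 of the 10. The background was as sparse, with 0.00897% of 11146 genes called, 393 at an unadjusted p below 0.05, and 57 called by DESeq2. Serpinh1, the gene with the lowest p, stood at 40.8, 107.4 and 51.6 CPM in endoderm-leaning cells, against 84.2, 560.6 and 59.6 CPM in epiblast-leaning cells. It was lower in endoderm-leaning cells of each library, and the ranges overlapped (log2 fold change -1.17 ± 0.44 (SE), adjusted p = 0.997, edgeR). Col4a1 stood at 40.3, 33.4 and 50.2 CPM in endoderm-leaning cells, against 66.2, 182.9 and 52.3 CPM in epiblast-leaning cells (log2 fold change -1.02 ± 0.52 (SE), adjusted p = 0.997, edgeR). Col4a2 was also lower in each library, at 39.1, 24.5 and 29.8 CPM in endoderm-leaning cells, against 67.7, 51.9 and 39.8 CPM in epiblast-leaning cells, with a log2 fold change of -0.73 ± 0.39 (SE) and the same adjusted p by edgeR. Col4a1 and Col4a2 were thus 2 of 10 genes without overlap of the libraries and lower in endoderm-leaning cells, against 1.94% of all genes.

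The laminin chains did not pass for the score either. Lamc1 had a log2 fold change of -0.0080 ± 0.36 (SE), Lamb1 of -0.15 ± 0.37 and Lama1 of 0.70 ± 0.87, with adjusted p of at least 0.997 by edgeR. Sparc stood at 158.8, 26.8 and 129.9 CPM in endoderm-leaning cells, against 107.9, 37.6 and 112.3 CPM in epiblast-leaning cells, and its log2 fold change was 0.13 ± 0.34 (SE). Nid1, Hspg2 and P4ha2 had log2 fold changes of -0.70 ± 0.42, 0.66 ± 1.41 and -0.33 ± 0.31 (SE). The 10 genes had a median log2 fold change of -0.24, against -0.0016 over all genes tested. In the 4 lists of related genes 0 of 16, 0 of 15, 0 of 11 and 0 of 5 tested genes passed by edgeR, with 1, 2, 0 and 0 at an unadjusted p below 0.05.

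A few cells held much of each transcript's counts, a measure in which the depth of a cell also counts and was not held fixed. The cells with the most counts of a gene were taken as 10% of the class, rounded up to whole cells. Among ICM-like cells these were 4, 3 and 4 of 35, 26 and 37 cells in replicates 1 to 3. They held 60.5%, 41.6% and 74.7% of Sparc counts and 58.6%, 41.6% and 64.5% of Serpinh1 counts. For Col4a1 they held 42.0%, 45.9% and 45.8% of counts in ICM-like cells. In TE-like cells 3, 4 and 4 of 29, 31 and 32 cells held 49.6%, 76.6% and 66.6% of Col4a1 counts. The share of cells taken thus differed somewhat between the classes. The number of the 10 genes with a count per thinned cell had medians of 3, 3 and 4 in TE-like cells, against 5, 6 and 4 in ICM-like cells. Cells with 7 or more of the 10 numbered 2, 0 and 0 among 27, 28 and 32 TE-like cells, against 6, 7 and 8 among 31, 24 and 36 ICM-like cells.

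The chaperone and the laminin β chain had the highest mean Spearman correlation of the pairs in thinned kept and thinned ICM-like cells, and not in TE-like cells. Correlations were taken across thinned cells within each library, whose cells share a library and a fixed depth, and are given as a description. Sparc and Serpinh1 both differed between the outer barcode sets in ICM-like cells, as given above. The part of the barcode number in the correlations was not tested. Lamb1 and Serpinh1 had Spearman correlations of 0.415, 0.439 and 0.367 across 74, 56 and 72 kept cells, and 0.478, 0.409 and 0.349 across 31, 24 and 36 ICM-like cells. In TE-like cells they had 0.140, -0.188 and 0.182, where Sparc and P4ha2 led with 0.436, 0.320 and 0.039. Without thinning, Sparc and Serpinh1 led in ICM-like cells, with a mean of 0.504 against 0.430 for Lamb1 and Serpinh1. In ICM-like cells Serpinh1 also correlated with Sparc at 0.236, 0.319 and 0.610 and with Col4a2 at 0.395, 0.501 and 0.228. Lamc1 and Sparc correlated at 0.308, 0.417 and 0.348. The collagen IV chains, which are needed together in the trimer, correlated at 0.200, 0.224 and 0.306 in ICM-like cells. Over all pairs the median of the mean correlation was 0.018 in TE-like cells, 0.155 in ICM-like cells, where 36 of 45 pairs could be measured in each library, and 0.089 in kept cells. Most pairs were thus near 0 in these sparse counts.

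**Figure D5:**
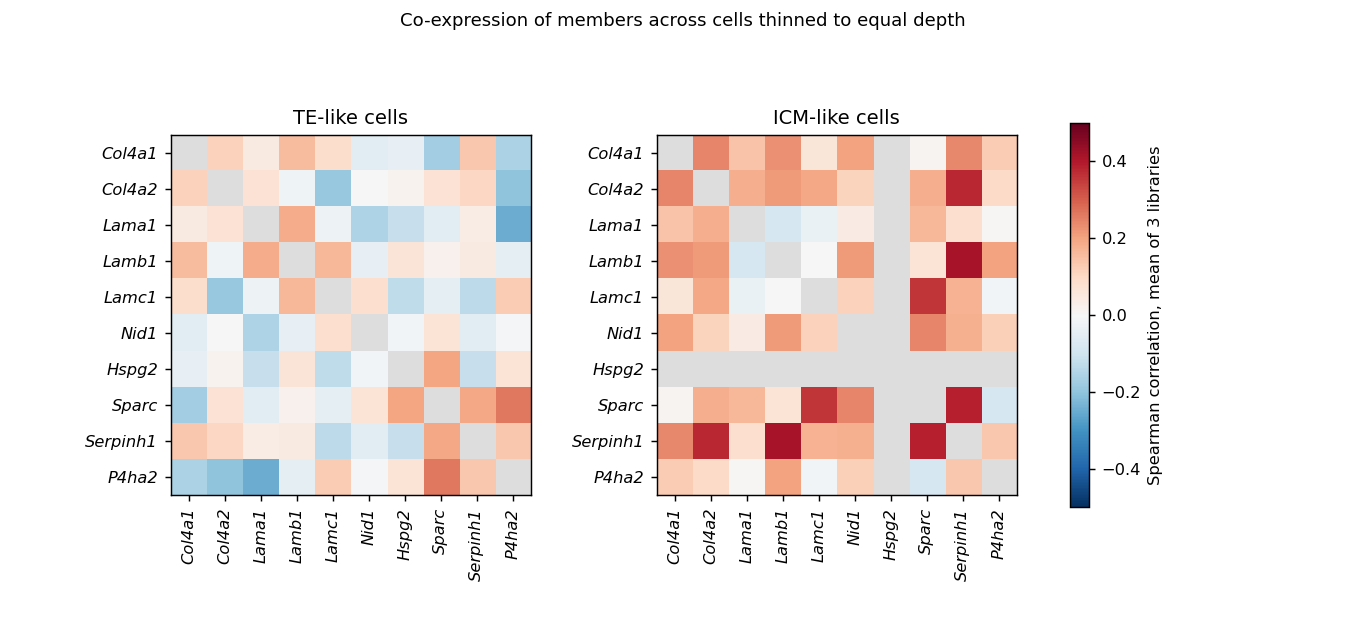
Mean over 3 libraries of the Spearman correlation between each pair of genes across thinned cells, in TE-like cells (left) and ICM-like cells (right); grey marks the diagonal and pairs that could not be measured in each library, which are those with Hspg2. The strongest pairs on the right are Lamb1 with Serpinh1 (0.412) and Sparc with Serpinh1 (0.388).

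Genes whose levels across cells were most like those of the 10 were found by correlation. Likeness was the lowest over the libraries of the Spearman correlation, across thinned kept cells, with the mean over the 10 genes of log2(count + 1), among 6149 genes with at least 10 CPM in each library. Upp1, uridine phosphorylase, led with 0.422, followed by Epha4, an ephrin receptor, with 0.398. Pdgfra, the receptor that marks primitive endoderm, had 0.365, and lower values were found for Smc5 (0.362), Aco1 (0.329), Mep1b (0.318), 6820431F20Rik (0.313), Tcf7l2 (0.310) and Ctsb (0.303). Upp1 and Pdgfra were among the markers on which the cells were clustered.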

How the data were processed

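Single-cell libraries of mouse blastocyst cells were analysed from the deposited counts, which are whole numbers per gene and cell barcode with no normalization. Per the labels' protocols, an optimized Smart-seq2 method with an oligo(dT) primer that carried an 8 nt barcode and an 8 nt molecular identifier was used, and 3′ ends were captured. CASAVA 1.8, HISAT2 and HTSeq, with build mm10, are listed in the submitters' processing notes. Not given in the sources used here are the annotation, whether counting used strand and whether identifiers were collapsed, so the counts may be molecules or reads, and intervals cover counting error only. Reads of Col4a1 and Col4a2, which overlap by 22 bases, of Col4a2 and Gm15419 (43 bases) and of Nid1 and Gm48682 (143 bases) cannot be told apart there without strand. The barcode sequence list, deposited as text, holds no measurement and was not used.

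Barcodes with at least 2000 genes were kept; no doublet caller was run, since cells were picked by hand, and cells above 2.5 times the median total of their class were left out in an alternative. Of 48 markers, 46 varied and entered the clustering (10 components, 15 neighbours, Leiden resolution 0.5, scanpy 1.11.5). Counts were scaled to the median total of kept cells and taken as log2 with a pseudocount of 1. For the clustering each marker was then centred within its library and scaled. A cluster was named where its score exceeded other cells by 0.25 and its 10 leading markers fitted. Counts were summed per library and class with at least 8 cells and tested with edgeR 4.0.16 (filterByExpr, TMM, quasi-likelihood, Benjamini-Hochberg, threshold 0.05, library as block), and with DESeq2 1.42.0 as an alternative. The edgeR procedure was tested on simulated data with a dispersion of 0.1, which need not be that of these data. It recovered 10.1% of 2-fold and 87.6% of 4-fold changes for TE-like over ICM-like cells, and 11.2% and 87% for the score. Genes that did not pass are therefore not shown to be equal. The library pairs the classes, since both came out of it. Classes were drawn on the cells then compared, which the p-values leave out of account. Separate animals or cultures per library are stated nowhere in the labels; p-values therefore measure only how these libraries vary, possibly for technical reasons. The genes and lists, and the rule that named all 10 genes, called genes of the lists and the 10 most alike, of which 1 is not reported here, were chosen with earlier results of these data known. Alternatives left out each library, the block and low-count filter, changed scaling, cell filters, depth, clustering, the score and the barcode sets.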

Additional observations from a re-analysis of the deposited data

Results flagged for a closer look

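Barcodes left out as cells, which no comparison used, held counts of the 10 genes: 31 counts in 13 barcodes of replicate 1, 34 counts in 32 barcodes of replicate 2 and 76 counts in 18 barcodes of replicate 3. These exceed the 3 counts that a count of 0 allows. They came to 656.1, 368.1 and 422.0 CPM of those barcodes, against 359.3, 839.5 and 389.2 CPM of kept cells, summed over the 10 genes.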

How the results depend on the processing

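Genes called between TE-like and ICM-like cells numbered 364, and 109 to 317 with 1 library left out; without replicate 2 there were 168 and without replicate 3 there were 109. With no replicate block 0 were called by edgeR (739 at an unadjusted p below 0.05), against 1369 by DESeq2 with the block. The count was 556 with no filter on low counts, 667 with cells thinned to 50000 counts, 707 without cells of very high total and 16 against ICM-like cluster 3 alone, the last chosen after seeing the data. Of the 10 genes 3 were called, 0 to 3 with 1 library left out, 0 with no replicate block, 5 with thinned cells, 1 against cluster 2 alone and 0 against cluster 3 alone. Between endoderm-leaning and epiblast-leaning cells 1 gene was called, 0 to 3 with 1 library left out, 11 with no filter and 57 by DESeq2. The count was 0 with no replicate block, thinned cells or no cells of very high total. It was also 0 with cells at the ends of the score or a score without Fgfr2 and Nanog. No call is counted from the joint block of library and barcode set, whose sums are not independent samples. The median co-expression of 0.089 was 0.155 in ICM-like cells alone and 0.147 without thinning. Signs turned for TE-like over ICM-like, as log2 fold changes, in Lama1 (-0.87 to 0.024 with 1 library left out, 0.99 against cluster 2), Lamc1 (0.011 against cluster 2), Sparc (0.40 against cluster 2) and Hspg2 (-0.42 to 0.70 with 1 library left out). For the score they turned with 1 library left out in Lama1 (-0.14 to 1.20), Hspg2 (-0.155 to 0.85), P4ha2 (-0.54 to 0.025, and 0.13 with the joint block) and Sparc (-0.13 to 0.42, and -0.10 thinned, -0.050 without high totals). Lamb1 ran between -0.595 and 0.27 with 1 library left out, and turned at 0.11 without high totals, 0.43 with the joint block, 0.40 for the ends of the score and 0.24 with the other score. Lamc1 turned at 0.11 without replicate 2, 0.22 without high totals, 0.19 with the joint block and 0.30 with the other score. The cause was not tested. Hspg2 and Lama1 rest on few counts, which limits them.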

Other observations

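In the 35 unnamed cells, 19, 7 and 9 by replicate, the laminin γ chain gene Lamc1 stood at 15.8, 242.8 and 377.2 CPM, Nid1 at 14.9, 290.8 and 36.9 CPM and the collagen IV gene Col4a2 at 19.5, 21.98 and 6.15 CPM. In replicate 2 a single cell held 82.8% of the Nid1 counts. Primitive endoderm markers of the unnamed cells summed to 875 ± 254 CPM and their trophectoderm markers to 3242 ± 2027 CPM (SD, n = 3 libraries). Of the primitive endoderm markers, Sox17, Sox7, Foxa2, Rspo3 and Foxq1 were listed at 0. By replicate, trophectoderm markers stood at 908.8, 4579 and 4237 CPM and epiblast markers at 828.0, 74.95 and 30.75 CPM. Oocyte markers summed to 506.7, 5.996 and 0 CPM in the unnamed cells of replicates 1 to 3. Median totals per cell were 263160, 65123 and 40109 counts, below those of TE-like and ICM-like cells in each replicate. These cells entered no comparison.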
